A study of Homo sapiens with 8 samples.

Results

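Kinesins are motor proteins that walk along microtubules or shorten them, and their genes were described here in SKOV3 cells, an established human ovarian carcinoma line, grown with or without added low-density lipoprotein (LDL). Members were all features whose name follows the symbol pattern of the kinesin genes (KIF followed by a number and at most 1 letter and digit, or KIFC1, KIFC2 and KIFC3), which gave 42 of the 22554 features in the count and FPKM tables. By their known roles 15 were placed in a mitotic group, 17 in a transport group and 10 in a remaining group of ciliary, signalling and less studied kinesins. RNA was sequenced from 4 control samples in ordinary medium and 4 samples that received LDL at 50 µg/mL for 48 h. Both groups came from the same unmodified line and were kept in McCoy's medium with fetal bovine serum, so the controls also met the lipoproteins of serum. Nothing in the labels ties the 4 samples of a group to separate cultures, and p-values here reflect only the spread between samples, which may be technical.

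Kinesins share a motor domain that splits ATP, and they differ in the tail that binds a cargo, a chromosome or another microtubule. Mitotic kinesins build the bipolar spindle, align chromosomes and drive cytokinesis, and many of their transcripts are made mainly in late G2 and mitosis. Transport kinesins carry vesicles, organelles and protein complexes, and several of them are restricted to neurons.

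The promoters of the mitotic group carried a sequence feature that the choice of members had not used. Genes of late G2 and mitosis are known to hold a cell cycle genes homology region (CHR), bound by the DREAM and MuvB complexes, next to CCAAT boxes bound by NF-Y. The letters TTTGAA (the CHR core) and TTCGAA (a variant) and the CCAAT box were searched on both strands in RefSeq windows of GRCh38.p14 that run from 250 bases before to 50 bases after a gene's start. Windows were found for 34 of the 42 kinesins (none for KIF5A, KIF13B, KIF19, KIF21B, KIF26B, KIF27, KIFC2 and KIFC3). TTTGAA was present in 10 of 15 mitotic genes, in 1 of 12 transport genes (KIF5B) and in 0 of 7 others, beside 15.2% of all 35116 windows. TTCGAA was present in KIF22 and in KIF24, a centriolar kinesin of the remaining group, beside 1.45% of all windows. The RefSeq start of KIF24 lies 17897 bases before the gene as GENCODE 29 places it, so its window belongs to a start that this annotation lacks. CCAAT was present in 11 of 15 mitotic, 4 of 12 transport and 3 of 7 other genes, beside 34.6% of all windows. The CHR letters together with CCAAT were found in 10 of 15 mitotic genes, 1 of 12 transport genes and 1 of 7 others, beside 6.38% of all windows. In the windows of the members no CHR match overlaps a CCAAT box, and these shares are descriptions with no test. A member counted if any of its windows held the letters, whereas the shares of all windows are per single window. The mitotic counts include both KIF4A and KIF4B, whose windows around the CHR share 28 of 30 bases. Of the 43 windows of the members, 26 had the sequence just after their start in a GENCODE 29 transcript of the same gene.

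To show the shared letters, 30 bases around each CHR match are given for the mitotic kinesins and for the 2 members outside that group that hold one. Each is 5′ to 3′ on the gene's strand, with motif letters in capitals. TTCAAA and ATTGG are TTTGAA and CCAAT read on the opposite strand, and TTCGAA reads the same on both.
KIF11, chr10:92593090-92593119, plus strand: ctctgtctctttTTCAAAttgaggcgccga
KIFC1, chr6:33391815-33391844, plus strand: tggccgttggaaTTCAAAagtggcgggtgt
KIF14, chr1:200620733-200620762, minus strand: gcggggcgcccaTTCAAAttgcggccttct
KIF15, chr3:44761747-44761776, plus strand: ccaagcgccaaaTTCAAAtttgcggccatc
KIF18A, chr11:28108149-28108178, minus strand: aagtggcttgggTTTGAAtattgtggttga
KIF18B, chr17:44947754-44947783, minus strand: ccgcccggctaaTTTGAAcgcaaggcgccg
KIF20B, chr10:89701602-89701631, plus strand: tggccgccattgTTTGAATTTGAAaacggt
KIF22, chr16:29790712-29790741, plus strand: ggcaccggggaaTTCGAAtgggagaggcgg
KIF23, chr15:69414282-69414311, plus strand: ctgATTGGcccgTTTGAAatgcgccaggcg
KIF4A, chrX:70290058-70290087, plus strand: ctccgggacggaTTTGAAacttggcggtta
KIF4B, chr5:155013746-155013775, plus strand: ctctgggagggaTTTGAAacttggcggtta
KIF5B, chr10:32056548-32056577, minus strand: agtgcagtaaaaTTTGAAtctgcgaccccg
KIF24, chr9:34329250-34329279, minus strand: acagcgcgggcgTTCGAActggcgcttggc

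The CHR matches of the mitotic kinesins clustered near the start of the gene. With the first transcribed base of the RefSeq start at 0, the first base of the match lay between -55 (KIF23) and 30 (the second of a pair in KIF20B), at -28 in KIF11, -34 in KIF4A, 2 in KIF18B and 4 in KIFC1. At a second RefSeq start of KIF22 the match at -27 of its first start is at -244. In KIF5B the match lay farther away, at -140. Matches starting between -60 and 40, a span chosen after the positions were seen, were found in 11 of 15 mitotic, 0 of 12 transport and 1 of 7 other genes, beside 5.28% of all windows. KIF2C, KIF20A, KIF2A and KIF2B had neither TTTGAA nor TTCGAA in their windows, which says only that these letters are not there. Other possible forms of the CHR were not searched. KIF11, which encodes the motor that pushes the spindle poles apart, has both motifs before its start. Its 120 bases before the RefSeq start are shown because they hold the CCAAT box, read on the opposite strand at -53, followed by the CHR at -28.
KIF11, chr10:92593010-92593129, plus strand: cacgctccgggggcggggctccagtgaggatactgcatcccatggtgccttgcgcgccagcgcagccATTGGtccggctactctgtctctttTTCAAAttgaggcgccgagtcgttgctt

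**Figure D1:**
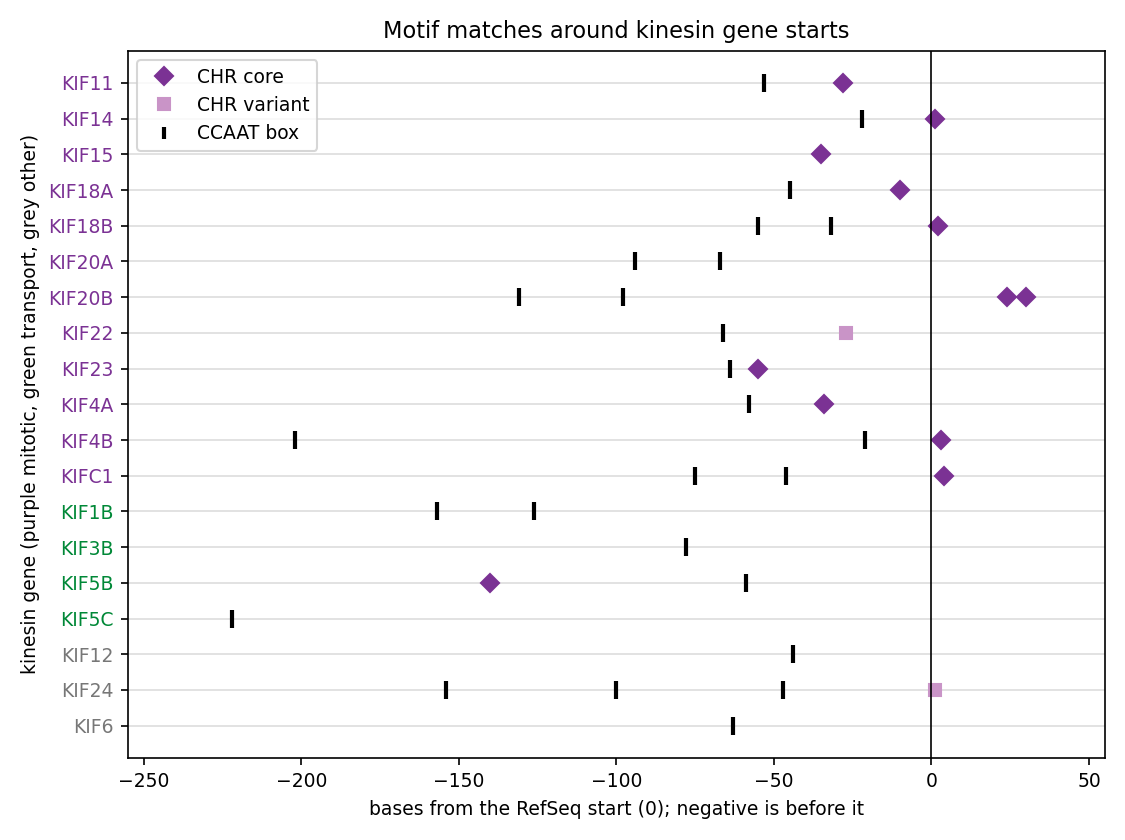
Positions of the CHR core, its variant and the CCAAT box in bases from the RefSeq start (0, horizontal axis) for each kinesin gene that holds at least 1 of them, with the first listed start where there are several. All CHR symbols of mitotic genes (purple names) lie between -55 and 30, whereas that of KIF5B lies at -140.

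Across the series, total counts were 37189698 to 44883561 in control and 34682501 to 36780334 in LDL samples, so each LDL library was shallower than each control library. The LDL samples differed among themselves. LDL sample 4 lay at -46.05 on the first principal component against -1.856 to 17.37 in the others. On the second, LDL samples 2 and 3 lay at 35.27 and 18.7, against -19.4 to -0.7016 in the others. On the second component the controls lay at -14.36 to -0.7016. LDL samples 1 and 4 were on their side of it, at -19.4 and -10.44. Without LDL sample 1 the test called 149 features in place of 10. Markers of the labelled cells were present, with PAX8 at 372.4 to 469.2 and ERBB2 at 2219 to 3092 CPM (counts relative to library size, with TMM scaling unless stated otherwise). The leukocyte markers PTPRC and ITGAM were at 0 in all libraries, and the summed CPM of 5 leukocyte markers was 38 to 49.2 in control and 48.3 to 53.0 in LDL samples, nearly all of it from CD68, which other cells also express. The 4 endothelial markers summed to 3.79 to 4.65 and 2.62 to 4.91 CPM. The 5 fibroblast markers summed to 360.2 to 381.5 CPM in control and 157.7 to 416.5 CPM in LDL samples. Nearly all of this came from COL1A1, at 146 CPM in LDL sample 4 against 343.4 to 398.0 in the other 7. COL1A2, PDGFRB, DCN and LUM reached at most 12.5, 1.07, 2.14 and 4.97 CPM in any sample. In bulk RNA, fewer cells of a kind and less RNA per cell cannot be told apart.

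Levels between genes were compared in FPKM, the authors' values scaled to gene length. Mitotic kinesins were the most abundant: 9 of 15 had a mean of at least 10 FPKM over the 8 samples, against 6 of 17 transport and 0 of 10 other kinesins. The group sums were 360.6 ± 10.9 FPKM for mitotic, 183.3 ± 3.91 for transport and 21.0 ± 0.525 for other kinesins in the control samples (SD, n = 4). In the LDL samples they were 350.1 ± 16.5, 183.6 ± 9.03 and 19.9 ± 1.02 FPKM (SD, n = 4), and the ranges of the 2 conditions overlapped in all 3 groups. KIF2C, a microtubule depolymerase of kinetochores, was the most abundant kinesin. From sample 1 to sample 4 it stood at 69.3, 71.2, 69.7 and 73.3 FPKM in the control and at 70.4, 68.2, 64.8 and 60.8 FPKM in the LDL group. It was followed by KIF22, a chromosome-bound motor that pushes chromosome arms outward, at a mean of 65.3 FPKM over all samples. The ranges of these 2 genes overlapped, so their order is not separated beyond the spread. KIFC1, a minus-end-directed motor that bundles spindle poles and holds extra centrosomes together, came next at 48.95 FPKM.

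The remaining mitotic kinesins covered a wide range. KIF20A, which carries the chromosomal passenger complex to the central spindle, and KIF23, the motor of the centralspindlin complex of cytokinesis, had means of 37.1 and 36.5 FPKM with overlapping ranges. KIF18B, which shortens astral microtubules, and the chromosome-bound motor KIF4A had 25.02 and 23.9 FPKM. KIF2A, a depolymerase of spindle poles, and KIF11 had 15.02 and 14.3 FPKM, and KIF18A, which aligns chromosomes, had 8.498. KIF15, a partner of KIF11 in keeping poles apart, KIF20B, needed in late cytokinesis, and KIF14, which recruits citron kinase, had 5.36, 4.28 and 2.64 FPKM. KIF2B had no count in any of the 8 libraries (0 in each). The upper limit that this allows, 3 counts, corresponds to 0.0668 to 0.0865 CPM on the total counts, without TMM scaling. KIF4B was close to its copy in sequence: its longest transcript is 95.2% identical to that of KIF4A over 4359 aligned bases, and its counts came to 0.39% of those of KIF4A. The printed promoter windows of KIF4A and KIF4B share 28 of 30 bases. How the counting divided reads between these copies is not given in the sources used here, so the level of KIF4B is uncertain. It had 16, 25, 16 and 23 counts in the control and 10, 18, 13 and 9 counts in the LDL libraries, with overlapping groups.

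Among transport kinesins, 3 led. KIFC3, a minus-end motor of the Golgi and cell junctions, had a mean of 44.9 FPKM over all samples. KIF5B, the widely expressed heavy chain of conventional kinesin, had 35.3 FPKM, and KIF1C, a motor of vesicles and integrins, had 29.7. KIF3B and KIF3C, which pair with KIF3A in other heteromeric motors, had 14.5 and 12.75 FPKM, while KIF3A itself had 4.09. KIF13A, a motor of recycling endosomes, had 11.6 FPKM, and KIF1B, a motor of mitochondria and vesicles, had 8.82. KIF21A, KIF13B, KIFC2 and KIF16B stood between 3.08 and 5.62 FPKM, and KIF21B, KIF17 and KIF5C between 0.439 and 1.21. The neuronal kinesins KIF1A and KIF5A reached at most 9 and 16 counts in any library and did not pass the filter on low counts. Of the 5 neuronal markers checked, SNAP25 and RBFOX3 reached at most 9 and 8 counts. The other 3 were detected, SYT1 at 2.76 to 7.28 CPM, MAP2 at 6.315 to 10.9 CPM and TUBB3 at 164.2 to 219.8 CPM.

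The remaining group was low throughout. KIF12 had 5.50, KIF24 5.24, KIF7 (a ciliary regulator of Hedgehog signalling) 4.23 and KIF9 (a kinesin of motile cilia) 4.12 FPKM. KIF27, KIF6, KIF26A and KIF26B had 0.0390 to 0.820 FPKM. KIF25 reached at most 16 counts and was not tested, and KIF19, which sets the length of motile cilia, had 0 counts in each library, with the same limit as KIF2B.

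**Figure D2:**
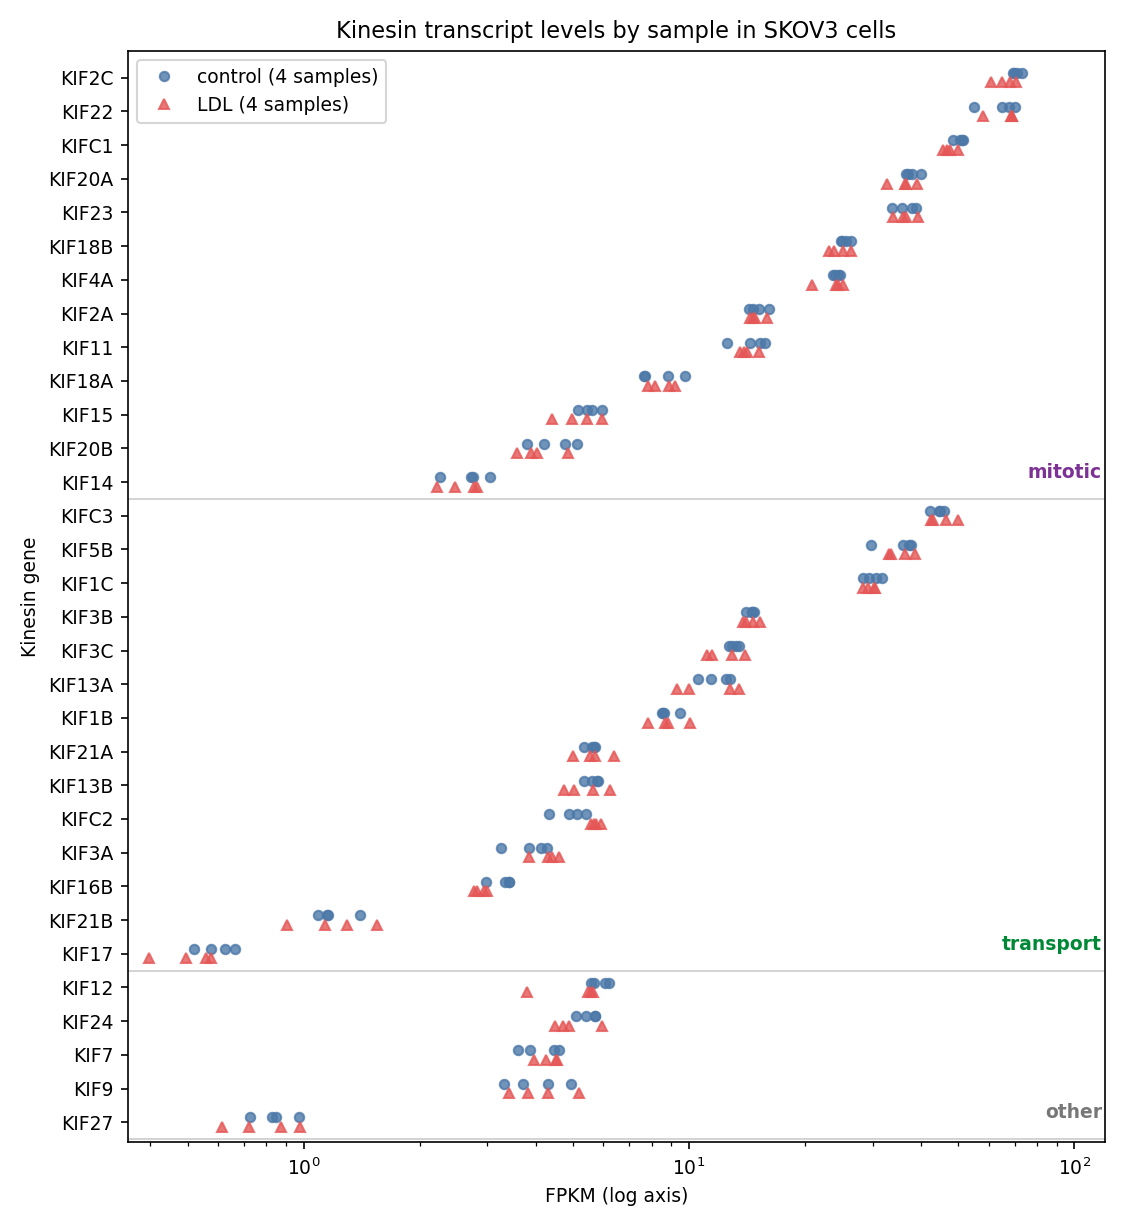
FPKM of each kinesin with a mean of at least 0.5 (log horizontal axis) in the 4 control (circles) and 4 LDL samples (triangles), ordered by mean within the mitotic, transport and other groups. KIF2C and KIF22 are at the top near 65 to 68 FPKM on average, and the triangles overlap the circles in each gene shown except KIFC2.

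The comparison of LDL with control addressed whether added LDL moved kinesin transcripts, and no kinesin passed the test. Of the 42 members 37 passed the filter on low counts, and 0 of these 37 had an adjusted p under 0.05 in the quasi-likelihood test of edgeR, beside 0.0648% of all 15432 features tested (0.0259% higher and 0.0389% lower in LDL). The smallest adjusted p among members was 0.822. At an unadjusted p under 0.05 there were 3 members (8.11% of 37), KIF16B and KIFC1 lower and KIFC2 higher, beside 5.59% of all features (2.88% higher and 2.72% lower). DESeq2 had 0 members past its adjusted threshold, beside 43 of 19622 features. At an unadjusted p under 0.05 it had 4 of 40 members (KIF2C besides these 3), 10.0% beside 4.79% of all features. With limma voom the counts were 0, beside 8 of 15432 features, and the same 3, beside 5.89% of all features. Groups did not overlap in 2 members (5.41%), KIF16B and KIFC2, beside 3.45% of all features (1.74% higher and 1.71% lower). These shares rest on 2 to 4 genes each. The unadjusted count was 0 without control sample 3, where 3.7% of all features reached that level. It was 5 without LDL sample 1, where 14.5% of all features did. The count without overlap was 4, 5 and 4 without control sample 1, LDL sample 2 and LDL sample 3, where 5.75%, 5.85% and 5.39% of all features did not overlap.

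The measurements were narrow enough to bound most members. Of the 30 tested kinesins with a mean of at least 1 FPKM, 24 had a 95% interval of the log2 fold change within 0.322 on either side of 0, and all 30 had one inside 1.5-fold. By role these were 12 of 13 mitotic, 10 of 13 transport and 2 of 4 other kinesins inside that narrower range. The 95% interval of KIF11 was -0.18 to 0.11 on the log2 scale and that of KIF5B -0.15 to 0.15. For KIF26A, KIF26B, KIF4B, KIF6 and KIF17, all of them low, the interval reached beyond 1.5-fold, and a change of that size was not detectable at this depth.

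**Figure D3:**
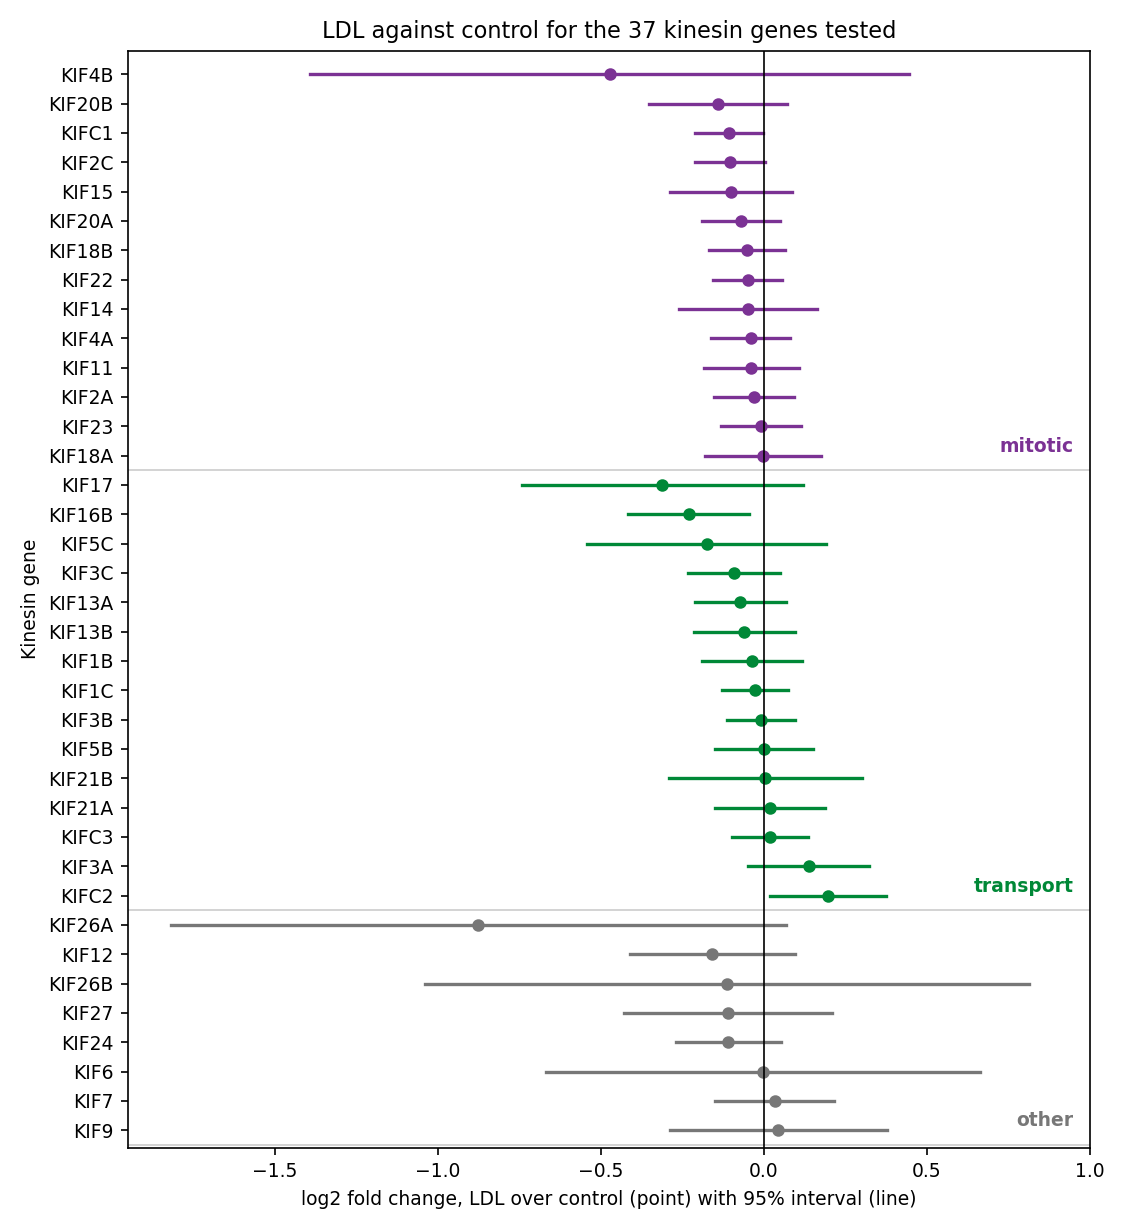
Log2 fold change of LDL over control with its 95% interval (edgeR, n = 4 per group) for the 37 kinesins tested, by role. The points of all 14 mitotic kinesins lie below 0, and except for KIFC1, KIF16B and KIFC2 all intervals cross 0.

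KIF16B, an early endosome motor that binds a phosphoinositide lipid, had the smallest p of the family. It lies on chromosome 20 from 16272104 to 16573434 on the minus strand of GRCh38, and GENCODE 29 places no other gene across it. By sample number its level was 16.3, 17.2, 17.6 and 15.15 CPM in the control and 13.55, 14.04, 14.5 and 14.3 CPM in the LDL group, so all LDL samples lay below all control samples. The group means were 16.5 ± 1.08 and 14.1 ± 0.418 CPM (SD, n = 4 each). With edgeR the log2 fold change of KIF16B came to -0.23 (SE 0.0882, adjusted p = 0.822). An exact permutation test of KIF16B by itself (two-sided) gave p = 0.0286, and no smaller value is possible with 4 samples on each side. Any feature whose groups do not overlap gets this value, and 3.45% of all features did not overlap. The permutation test therefore adds nothing to the lack of overlap for which KIF16B was named. In FPKM the groups overlapped, at 2.98 to 3.41 in control and 2.775 to 2.99 in LDL samples.

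KIFC2, a minus-end motor known mainly from neurons, lay in the opposite direction. It stood at 18.35, 17.5, 15.1 and 16.7 CPM in the control and at 19.9, 19.2, 19.2 and 19.4 CPM in the LDL group, again without overlap. The means were 16.9 ± 1.39 and 19.4 ± 0.324 CPM (SD, n = 4 each), a log2 fold change of 0.20 (SE 0.0846, edgeR adjusted p = 0.876, exact permutation p = 0.0286). This permutation p, too, follows from the lack of overlap alone. FOXH1, which overlaps KIFC2 on the opposite strand, had a mean of 1.62 counts per library. Without control sample 3, the lowest of the 8, the log2 fold change of KIFC2 was 0.15.

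KIFC1 (plus strand, chromosome 6, positions 33391536 to 33409924) differed less. The control samples had 122.5, 118.9, 124.0 and 123.9 CPM and the LDL samples 111.6, 120.8, 112.8 and 109.4 CPM. LDL sample 2 lay inside the control range and the other 3 below it. With edgeR its log2 fold change was -0.11 (SE 0.0492), the adjusted p was 0.878 and the exact permutation p 0.0571. KIF2C, on the plus strand of chromosome 1 from 44739818 to 44767767, stood at 202.5, 211.1, 209.5 and 218.6 CPM in control samples and at 205.0, 204.0, 194.4 and 180.2 CPM in LDL samples. Its groups overlapped, and LDL sample 4 was the lowest of the 8. The log2 fold change of KIF2C was -0.10 (SE 0.0507, edgeR adjusted p = 0.879) and -0.065 without LDL sample 4.

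**Figure D4:**
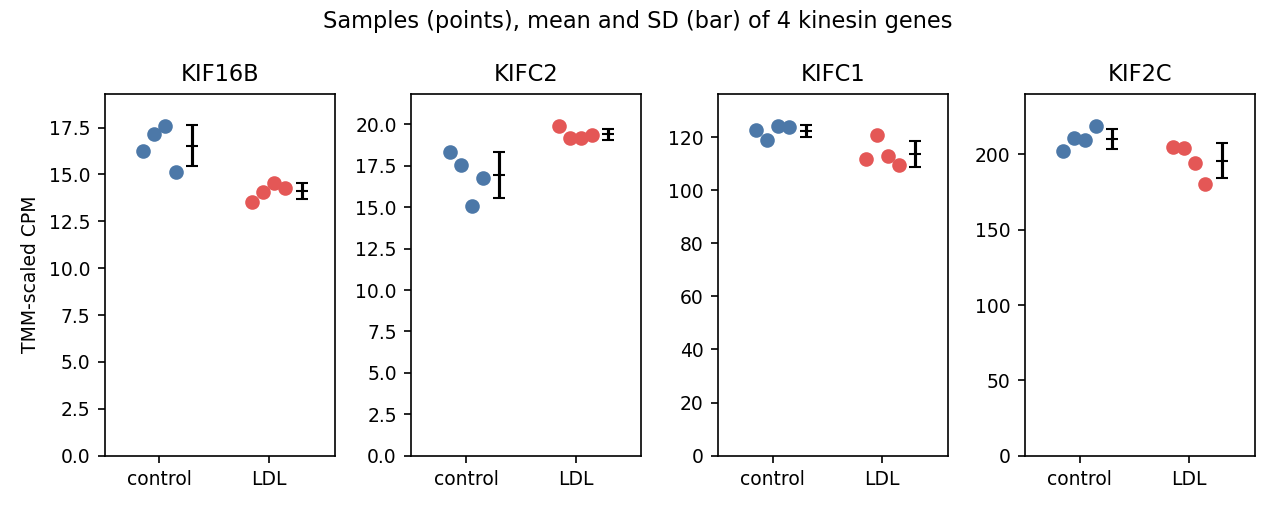
TMM-scaled CPM (vertical axis, from 0) of KIF16B, KIFC2, KIFC1 and KIF2C in each control and LDL sample (points), with the mean and SD of 4 samples beside them. The groups of KIF16B and KIFC2 do not overlap, and those of KIFC1 and KIF2C do.

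All 14 tested mitotic kinesins had a log2 fold change below 0, none past the threshold, beside 47.7% of all features below 0. Their median was -0.051, beside 0.0060 for all features. The group's values ran from -0.47 (KIF4B, the uncertain copy) to -0.0027 (KIF18A). With single samples left out KIF4B ran from -0.72 to -0.30. Whether the 14 genes vary independently of each other was not tested. KIF20B was at -0.14, KIF15 at -0.10, KIF20A at -0.070, KIF18B at -0.053, KIF22 at -0.049, KIF14 at -0.0475, KIF4A at -0.040, KIF11 at -0.038, KIF2A at -0.030 and KIF23 at -0.0095. KIF2A overlaps IPO11 and KIF15 overlaps TMEM42 on the same strand, so their reads could be split between the genes. KIF2A also overlaps DIMT1 (a mean of 2012 counts per library) on the opposite strand over 16686 bases. When single samples were dropped, the mitotic median stayed between -0.0795 (without LDL sample 2) and -0.038 (without LDL sample 4), while the number of the 14 below 0 ran from 10 to 14. FPKM values, with a mean of at least 0.5, put 11 of 13 below 0.

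The mean relative level of the 14 mitotic kinesins (log2 CPM minus each gene's mean over the 8 libraries) was 0.053, 0.126, 0.007 and -0.009 across the controls in order of number. It was -0.037, 0.027, -0.063 and -0.103 in LDL samples 1 to 4, so LDL sample 2 lay within the control range and LDL sample 4 was the lowest. Each gene weighs the same in this level, so the uncertain copy KIF4B, with 9 to 25 counts per library, weighs as much as KIF2C. The level without KIF4B was not computed. LDL sample 4 held the lowest value of the 8 libraries in 7 of the 14 genes, and it is also the library with the low COL1A1 level; the part of this library's composition in the result was not tested. KIF4A shows this pattern: it was at 109.5, 109.0, 115.0 and 112.2 CPM in control samples and at 112.9, 111.7, 112.8 and 96.05 CPM in LDL samples. KIF18A, at the other end of the group, stood at 34.9, 31.7, 27.7 and 27.7 CPM in control and 31.2, 28.2, 29.4 and 32.9 CPM in LDL samples, with overlapping groups. KIF11 also lacks that pattern: it was at 80.1, 82.9, 77.0 and 66.0 CPM in control and 72.8, 80.2, 73.8 and 71.2 CPM in LDL samples, with the lowest value in control sample 4.

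Transport kinesins were split, with 9 of 15 below 0 and a median of -0.026. Their mean relative level was 0.001, 0.047, 0.043 and -0.004 in the controls by number and 0.052, -0.080, -0.004 and -0.054 in the LDL samples, so LDL sample 1 was the highest of the 8 and LDL sample 2 the lowest. LDL sample 1 held the highest level of the 8 libraries in 6 of the 15 genes. Without it the median was -0.11, and without control samples 1 to 4, or LDL samples 2, 3 and 4, it was -0.046, -0.049, -0.013, -0.047, -0.027, -0.0085 and -0.032. The abundant cargo motors stayed near 0. KIF5B was at 227.6, 233.2, 224.2 and 183.6 CPM in control and 233.3, 207.3, 204.6 and 223.9 CPM in LDL samples (log2 fold change 0.0012). KIF1C was at 239.7, 234.7, 254.4 and 262.2 CPM in control and 246.8, 242.2, 234.6 and 249.8 CPM in LDL samples (-0.026). KIFC3 was at 141.2, 147.3, 151.7 and 146.1 CPM in control and 146.3, 142.5, 140.2 and 165.4 CPM in LDL samples (0.020). In all 3 the groups overlapped, and the direction of KIF5B turned with the scaling factor used (-0.0011 with DESeq2 size factors and -0.0075 with upper-quartile factors).

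The subunits of the heteromeric motors had values on both sides of 0. KIF3A was at 27.2, 28.5, 25.9 and 21.7 CPM in control and 28.0, 25.6, 29.5 and 30.5 CPM in LDL samples (log2 fold change 0.14), KIF3B was at -0.0082 and KIF3C at -0.090, none of them past the threshold and all with overlapping groups. KIF17, a dendritic and ciliary motor, had the lowest log2 fold change of the transport group, -0.31 (SE 0.204, edgeR adjusted p = 0.8835), from 2.18, 2.80, 2.43 and 2.63 CPM in control and 2.08, 1.66, 2.42 and 1.92 CPM in LDL samples. KIF5C was at -0.18, KIF13A at -0.0715, KIF13B at -0.060, KIF1B at -0.035, KIF21A at 0.019 and KIF21B at 0.0052.

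Set beside each other, the medians of mitotic and transport kinesins differed by -0.025. Per sample, the level of mitotic minus transport kinesins was 0.052, 0.079, -0.036 and -0.005 for the controls and -0.089, 0.107, -0.059 and -0.049 for the LDL samples, each in order of number. The highest and the lowest value both came from LDL samples, and the groups overlapped. KIF4B, with its few counts, weighs as much here as any other mitotic gene. The difference of medians was 0.037 without LDL sample 1, 0.0021 without control sample 2 and -0.0057 without LDL sample 4, and it lay between -0.054 and -0.014 without each of the other 5. Without both LDL samples 1 and 4 it was 0.018. The 2 roles were therefore not separated beyond the spread between samples.

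**Figure D5:**
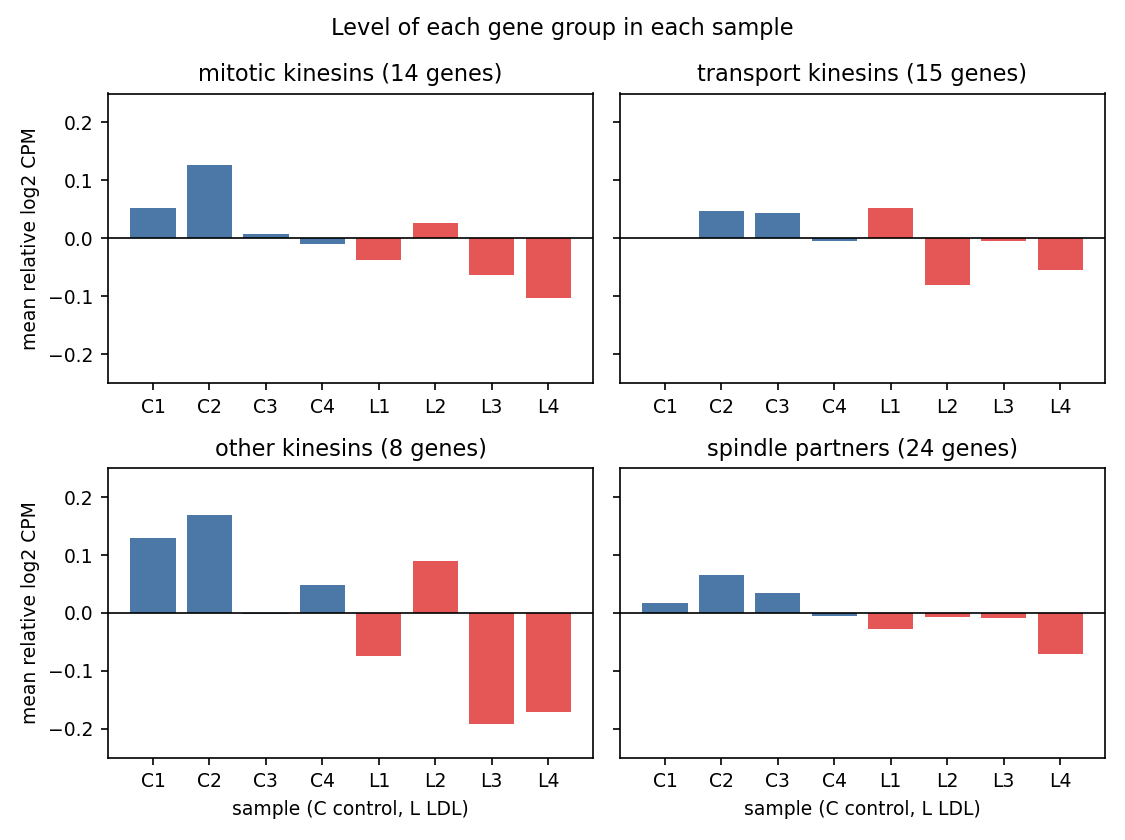
Mean relative log2 CPM (vertical axis, 0 is the mean of all 8 libraries) of mitotic, transport and other kinesins and of spindle partner genes in control samples 1 to 4 (C1 to C4) and LDL samples 1 to 4 (L1 to L4). LDL sample 4 is lowest for mitotic kinesins at -0.103 and LDL sample 1 is highest for transport kinesins at 0.052. Each gene weighs the same, including those with few counts such as KIF4B.

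Of the 8 tested kinesins of the remaining group, 6 were below 0, with a median of -0.11, and none passed. That median was -0.038 without control sample 1, -0.060 without control sample 2, -0.073 without LDL sample 4 and -0.19 without LDL sample 1, and 0.0070 without both LDL samples 1 and 4. KIF12 was at 12.1, 11.7, 11.3 and 12.2 CPM in control and 11.3, 11.04, 11.9 and 8.095 CPM in LDL samples, with LDL sample 4 below the other 7. KIF24, which restrains the formation of primary cilia, was at 32.7, 35.9, 35.3 and 34.8 CPM in control and 36.9, 28.9, 31.4 and 31.5 CPM in LDL samples. LDL sample 1 was the highest of the 8 for KIF24 and the other 3 LDL samples lay below all controls. KIF7 was at 20.9, 17.2, 18.7 and 20.9 CPM in control and 19.7, 20.5, 18.75 and 20.75 CPM in LDL samples (log2 fold change 0.034). KIF9 was at 4.36, 4.295, 4.675 and 3.82 CPM in control and 3.62, 5.03, 4.15 and 4.88 CPM in LDL samples (0.044). Both had overlapping groups and turned direction when single samples were dropped. TICRR, with a mean of 1627 counts per library, overlaps KIF7 on the opposite strand over 22268 bases. Whether the counting kept strands apart is not given in the sources used here, so the level of KIF7 may include reads of TICRR. On the log2 scale KIF27 was at -0.11, KIF26B at -0.11 and KIF6 at -0.0030. KIF26A, an atypical kinesin that acts in signalling, had the lowest value of all kinesins at -0.88 (SE 0.446, edgeR adjusted p = 0.879), from 19, 46, 28 and 35 counts in control and 17, 25, 7 and 12 counts in LDL samples. Its value without each sample in turn ran from -1.24 to -0.60.

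Genes that work with kinesins were described by the same test, and none of those listed passed over all features. Of 24 spindle partners (the kinetochore kinesin CENPE, which the symbol pattern leaves out, mitotic kinases, the passenger complex and the central spindle) 21 were below 0 (87.5%, beside 47.7% of all features), with a median of -0.066. AURKA, the kinase of spindle poles, had the smallest p of the list. It was at 126.3, 119.4, 128.6 and 129.1 CPM in control and 114.1, 108.7, 114.9 and 115.1 CPM in LDL samples, without overlap (log2 fold change -0.15, SE 0.0487, edgeR adjusted p = 0.675). BIRC5 and TPX2 also lay lower without overlap (-0.12 and -0.11), and PLK1 was at -0.11 with overlap; these 4 of 24 were at an unadjusted p under 0.05, beside 5.59% of all features, and 3 of 24 did not overlap, beside 3.45%. CENPE was at -0.055, RACGAP1, which forms centralspindlin with KIF23, at -0.11 and PRC1, which recruits KIF4A, at -0.0165. The 6 proliferation markers had a median of -0.067 with 5 below 0, and TOP2A, with the smallest p among them, was at -0.086. The regulators of mitotic genes had 8 of 13 below 0 and a median of -0.0265, with MYBL2 at -0.055 and FOXM1 at -0.0435. The other 5 were above 0, among them LIN37 at 0.13 and E2F1 at 0.054. The medians of spindle partners and proliferation markers thus lay near that of the mitotic kinesins (-0.051). The median of the regulators lay near that of the transport kinesins (-0.026). The part of cell cycle stage in these values was not tested.

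Among genes of the transport side, 13 of 19 cargo adaptors were below 0 with a median of -0.016. KLC1, a light chain that binds KIF5B, was at 0.045 and KIFAP3, the adaptor of the KIF3 motors, at 0.092. MAP7D2, a microtubule protein that recruits conventional kinesin, had the smallest p of the list, at 3.03, 3.84, 3.33 and 4.58 CPM in control and 2.87, 2.18, 2.91 and 1.72 CPM in LDL samples without overlap (log2 fold change -0.61, SE 0.209, edgeR adjusted p = 0.773). Of 20 dynein and dynactin genes, the motor that walks the other way, 13 were below 0 with a median of -0.0053. DYNC1I1 had 28 counts summed over the controls and 69 summed over the LDL libraries, without overlap in CPM, and had the smallest p there (log2 fold change 1.47, SE 0.627, edgeR adjusted p = 0.876). The 11 tubulin genes had a median of 0.0059 with 5 below 0, and TUBB2B, with the smallest p, was at -0.11.

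The FPKM and count tables agreed for most kinesins but not all. For a gene of fixed length, FPKM divided by CPM should differ between libraries only by how each measure scales the library. KIF4A, KIF5B and KIF11 shared 1 profile, from 0.989 of the gene's median in control sample 3 to 1.024 in LDL sample 1 (factor 1.035). Over the 30 tested members with a mean of at least 1 FPKM, the highest ratio exceeded the lowest by a factor of 1.03 to 1.39 (median 1.05). Factors near 1.035 therefore need not reflect length. The factor was above 1.2 in 3 of them, KIF9 (1.39), KIF13A (1.24) and KIF22 (1.24). KIF22 was at 67.7, 70.4, 54.8 and 65.0 FPKM in control and 68.9, 68.7, 69.1 and 57.9 FPKM in LDL samples, against 152.2, 158.5, 146.7 and 162.8 CPM in control and 150.5, 156.1, 149.6 and 143.1 CPM in LDL samples. The drop of KIF22 in control sample 3 was thus larger in FPKM than in CPM, and the direction of KIF22 turned from -0.049 on counts to 0.039 with FPKM. KIF6 (0.377 FPKM on average) had a factor of 4.68. How the FPKM values took length into account is not given in the sources used here.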

How the data were processed

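The labels' protocols describe libraries made from total RNA with a TruSeq stranded mRNA kit. HISAT2, featureCounts, DESeq2 1.26.0 and GRCh38 are named, without roles, per the submitters' processing notes; how reads were counted, and with which annotation, is not given in the sources used here. Counts deposited by the authors are whole numbers that behave like estimated counts (55.17% of values from 1 to 20 were even), include 2557 assembled features, and were treated that way without rounding. The authors' deposited FPKM values served for levels between genes and for alternatives.

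LDL and control samples were compared by quasi-likelihood in edgeR 4.0.16 under R 4.3.3 (TMM, filterByExpr, robust, group only, Benjamini-Hochberg over 15432 features, adjusted p under 0.05). Log2 CPM used a prior count of 2. Alternatives were other scaling factors and filters, DESeq2 1.42.0, limma 3.58.1 (voom, or log2(FPKM + 1) and log2(FPKM + 0.1)), each sample left out, a block for the replicate number, and narrower role groups; leaving out LDL samples 1 and 4 together was added after seeing the data. Gene coordinates are from GENCODE 29, promoter windows from RefSeq, and transcripts were aligned with BLAST 2.17.0. The gene test was tested on simulated data: with 200 of 15432 genes changed in each of 3 data sets of LDL against control, it called 25.3% of genes changed 1.25-fold, 66% of those changed 1.5-fold, 72.7% of those changed 2-fold and 90.7% of those changed 4-fold.

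Same-numbered control and LDL samples are not said to share an origin, and the fits took them as unpaired. Limits for counts of 0 (3 counts) cover counting error only. Members, roles and lists were chosen with earlier results of these data known. Values by sample are given for members with an unadjusted p under 0.05 or groups that do not overlap, for the 3 with the highest FPKM and for the highest and lowest log2 fold change of each role; the gene with the smallest p of each partner list is named, with values by sample where its groups do not overlap and it is not near the floor; other members are named with fewer values, and those shown by sample besides were chosen as examples after their values were seen.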

Additional observations from a re-analysis of the deposited data

Results flagged for a closer look

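In 5 of 82 groups of 4 samples checked (37 kinesins and 4 group levels in 2 conditions each), 1 sample lay far from the other 3 by Dixon's test at the 95% level; chance gives about 1 in 20. KIF1B was at 96.5 CPM in control sample 3 against 86.0 to 87.1 in the other controls. KIF21B was also highest in control sample 3, at 13.9 CPM against 11.03 to 11.45. KIF4A was at 96.05 CPM in LDL sample 4 against 111.7 to 112.9 in the other LDL samples. KIF26B was at 0.969 CPM in control sample 1 against 0.439 to 0.480, and at 0.230 CPM in LDL sample 4 against 0.6345 to 0.668, at 8 to 40 counts per library.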

How the results depend on the processing

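No kinesin passed an adjusted p of 0.05 in any of the 19 alternative fits, which called 2 to 248 of all features tested. The count at an unadjusted p under 0.05 was 3 in the main fit. With a minimum of 0.5 FPKM it was 1 with log2(FPKM + 1) or log2(FPKM + 0.1), beside 6.16% and 6.21% of all features. With 1 sample left out it was 0 to 5, beside 3.7% to 14.5% of all features. The count without overlap (2) was 1 in the FPKM fits, beside 3.12% to 3.68% of all features. It was 2 to 5 with 1 sample left out, beside 5.2% to 14.3%. Without both LDL samples 1 and 4 it was 5, where 24.1% of all features did not overlap. The mitotic median (-0.051) was -0.0795 to -0.038 with 1 sample left out and -0.060 to -0.042 in its other alternatives. The SD of the mitotic level between controls was 0.0604, larger in size than this median. The transport median (-0.026) was 0.0018 in both FPKM fits with a minimum, -0.078 without both LDL samples and -0.11 to -0.0085 with 1 sample left out. The median of other kinesins was 0.0070 without both LDL samples and -0.19 to -0.038 with 1 left out, and the difference of mitotic and transport medians ran from -0.054 to 0.037. With the replicate number as a block the difference was -0.027, no kinesin was called, and 2 of all features were. In that fit 2 members had an unadjusted p under 0.05, beside 4.28% of all features. Deviations from the group means had correlations of -0.101 to 0.0602 between same-numbered samples. Between differently numbered samples they ran from -0.0574 to 0.0662. These values cannot tell whether same-numbered samples share an origin or a batch with a small effect. Uncalled genes near 0 turned direction. KIF5B (0.0012) was -0.0011 with DESeq2 size factors, -0.0075 with upper-quartile factors, -0.0071 with no count filter, -0.0016 with DESeq2 and -0.080 without both LDL samples. KIF18A (-0.0027) was 0.0013 with the block, 0.0035 with voom, and 0.0071, 0.0083 and 0.0071 with FPKM, where KIF22 was 0.039, 0.039 and 0.039. KIFC3 was -0.0565 without both LDL samples. With 1 sample left out KIF5B ran from -0.073 to 0.037, KIF18A from -0.048 to 0.064, KIFC3 from -0.036 to 0.047, KIF1C from -0.051 to 0.0009, KIF7 from -0.020 to 0.070 and KIF9 from -0.026 to 0.13. Small fold changes were often missed in the simulated data and may be missed here too.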
